A study of Mus musculus with 10 samples.

Results

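The 35 genes described here are induced by type I interferon, and they were taken by name from the 45777 genes measured in MC38 tumors. No cutoff on a measured value was used to choose them, but earlier results of these data were known at that time. All 35 were found under their symbols, and all 35 passed the filter on low counts. Type I interferons are cytokines of antiviral defense that act on the receptor chains Ifnar1 and Ifnar2. Signaling from the receptor leads to a complex with Stat2 and Irf9 that binds interferon-stimulated response elements near its target genes. The targets encode further transcription factors, sensors of foreign nucleic acid, antiviral effectors and the ubiquitin-like protein Isg15 with its enzymes, and in tumors they are known as a sign of innate immune sensing.

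RNA was taken from formalin-fixed, paraffin-embedded tumors of 10 mice, 1 library each. MC38 is a mouse colon carcinoma line, here grown under the skin of the flank of wild-type female C57BL/6 mice bought at 6 weeks of age. The groups were YH29407+aPD-1 (the combination, 3 tumors, replicates 2, 3 and 4), YH29407 (3 tumors, replicates 1, 3 and 4), aPD-1 (2 tumors, replicates 3 and 4) and control (2 tumors, replicates 3 and 5). YH29407, an oral inhibitor of the tryptophan-degrading enzyme Ido1, was given at 100 mg/kg, and aPD-1, an antibody that blocks the checkpoint receptor PD-1, at 10 mg/kg. All tumors came from 1 cell line in 1 strain, and the day on which these tumors were taken is not given in the sources used here. The comparison of YH29407+aPD-1 with YH29407 asked what the antibody added, and the comparisons with aPD-1 and with control tumors placed it beside the other groups. Comparisons that share a group share its libraries.

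Libraries held 56170804 to 76287659 counts, and values are given as CPM, read counts relative to library size, after scaling by the trimmed mean of M-values, in the order of the replicates above. The labels call the cells colon cells, and 11 genes of colon epithelium summed to 8.64 to 34.4 CPM. Of their defining genes, Cdh1 was at 1.73 to 10.8 CPM, Vil1 at 0.203 to 1.72 CPM and Epcam at 0.0722 to 1.59 CPM, while Cdx2, Krt8 and Krt18 were at 0 to 0.486 CPM. Combination replicate 4 stood apart, with 2.28% of counts from mitochondrial mRNA and 7.09% from pseudogenes, against 0.413% to 0.560% and 3.04% to 3.70% in the other 9 libraries. In tissue as a whole, fewer cells of a type and less RNA per cell cannot be told apart.

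No member passed an adjusted p of 0.05 in any of the 7 comparisons by edgeR's quasi-likelihood test with Benjamini-Hochberg adjustment, and neither did any of the 21523 genes tested (0% of genes called in each). The members varied together from tumor to tumor, also within a group. The first principal component of the 35 genes held 82.5% of their variance over the 10 libraries. This share includes combination replicate 4 and was not computed without that library. Control replicate 3 had the highest value of the 10 libraries in 33 members, a place it held in 7.12% of all genes. Combination replicate 4 had the lowest value in 28 members, a place it held in 32.7% of all genes. YH29407 replicate 3 was second highest in 22 members, against 8.93% of all genes.

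Relative log2 CPM, the log2 CPM of a gene minus its mean over the 10 libraries, averaged 0.13, 0.04 and -1.57 over the members with YH29407+aPD-1. It averaged 0.24, 0.58 and -0.03 with YH29407 alone, -0.48 and 0.04 with aPD-1, and 1.02 and 0.03 in control tumors. Combination replicates 2 and 3, YH29407 replicate 4, aPD-1 replicate 4 and control replicate 5 thus lay close to the mean, 1 or 2 from each group. All 35 members were higher in control replicate 3 than in control replicate 5, by a median log2 difference of 0.97 (0.33 for Bst2 to 1.89 for Oas3). All 35 were also higher in aPD-1 replicate 4 than in aPD-1 replicate 3, by a median of 0.44 (0.13 for Sp100 to 1.25 for Rsad2). Combination replicate 4 was lower than replicate 2 in all 35 members, with a median log2 difference of -1.75, and lower than replicate 3 in 32. Replicates 2 and 3 of that group were close, with a median difference of 0.15. Over all genes the medians of these differences were between -0.08 and 0.

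**Figure D1:**
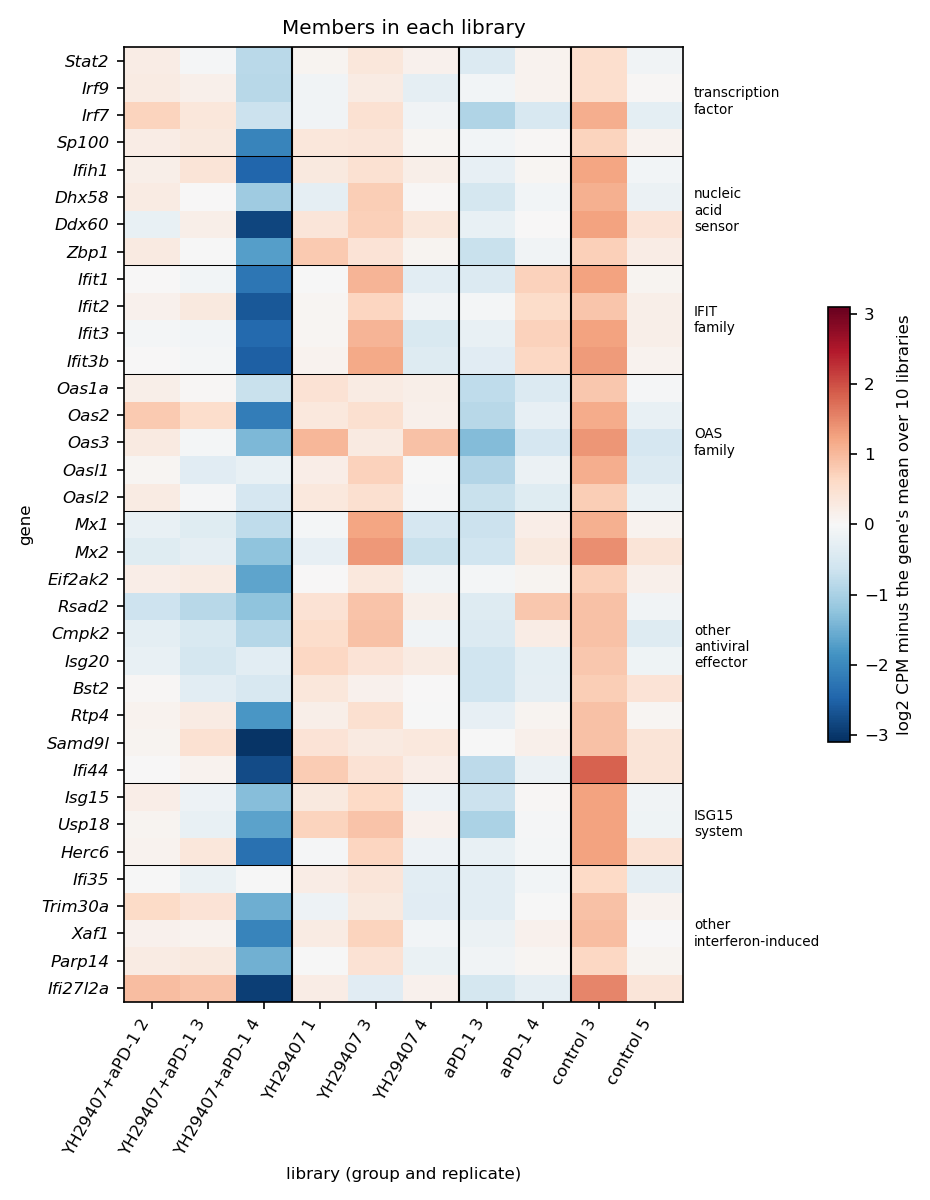
Relative log2 CPM of the 35 members (rows, by role) in the 10 libraries (columns, by group and replicate), where red is above and blue below the gene's mean over the libraries. Control replicate 3 is red in every row, at 0.51 or more, and combination replicate 4 is blue in every row, from -3.03 to -0.01.

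The place of combination replicate 4 differed among the members. Relative to the mean of the other 9 libraries its log2 CPM differed by -3.37 for Samd9l, -3.24 for Ifi27l2a and -3.17 for Ddx60, but by -0.015 for Ifi35, -0.25 for Oasl1 and -0.37 for Isg20. Across the 35 members this difference had a Spearman correlation of 0.70 with the GC content of the longest coding transcript and of -0.29 with its length. Across 16377 genes with a coding transcript the correlations were 0.36 and -0.08. For control replicate 3 the correlations over the members were -0.15 with GC content and -0.10 with length. Across the 16377 genes they were -0.315 and 0.035. These describe genes within 1 library, and genes are not independent replicates. The part of RNA quality in the low values of combination replicate 4 was not tested, and the comparisons of its group are therefore also given without it.

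**Figure D2:**
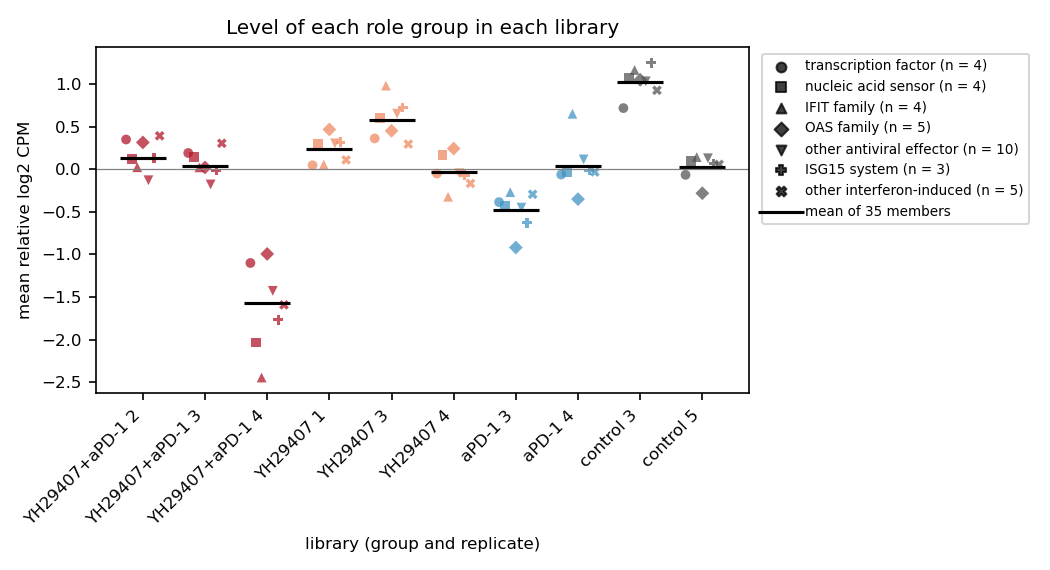
Mean relative log2 CPM of each role group (symbols, with the number of genes) and of all 35 members (black bars) in each library. The IFIT family (triangles) spanned 3.61 log2 units, from -2.44 in combination replicate 4 to 1.16 in control replicate 3, and 1.49 without combination replicate 4, where the OAS family spanned 1.97 and the ISG15 system 1.88.

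Per transcript length, in deposited FPKM, the members covered a 13-fold range of mean level. Samd9l (79.1 FPKM), Bst2 (78.8), Zbp1 (73.4), Parp14 (57.7) and Oas1a (55.0) had the highest means over the 10 libraries, and Mx2 (11.0), Cmpk2 (9.68) and Isg20 (5.90) the lowest. The smallest count of any member in any library was 54, for Ifi27l2a in combination replicate 4.

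The 250 bases upstream of the RefSeq gene start were available for 26 members, in 32 windows. They were searched on both strands for GAAANNGAAA, a short form of the interferon-stimulated response element. It was found in 11 of the 26 members (42.3%), against 936 of 27025 genes with a window (3.46%). The 11 were Stat2, Ddx60, Ifit1, Ifit3, Ifit3b, Oas1a, Oas3, Rsad2, Bst2, Isg15 and Trim30a. Windows are printed for Rsad2, Oas1a, Oas3 and Ddx60, which did not overlap between YH29407+aPD-1 and YH29407, for Bst2, which had the smallest p against control tumors, and for Isg15, which held the most matches. They are from GRCm38.p6, 5′ to 3′ on the strand of the gene, and capitals mark the matches, which read TTTCNNTTTC where they lie on the other strand.
Rsad2: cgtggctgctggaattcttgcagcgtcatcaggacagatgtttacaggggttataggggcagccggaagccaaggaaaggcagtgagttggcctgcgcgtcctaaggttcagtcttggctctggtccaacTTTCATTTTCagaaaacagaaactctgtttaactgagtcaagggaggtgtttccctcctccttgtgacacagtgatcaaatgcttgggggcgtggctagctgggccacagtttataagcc
Oas1a: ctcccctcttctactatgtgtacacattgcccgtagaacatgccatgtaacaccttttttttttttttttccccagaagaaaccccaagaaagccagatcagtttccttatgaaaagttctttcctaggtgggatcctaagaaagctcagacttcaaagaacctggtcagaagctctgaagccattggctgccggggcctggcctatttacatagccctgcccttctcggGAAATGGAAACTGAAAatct
Oas3: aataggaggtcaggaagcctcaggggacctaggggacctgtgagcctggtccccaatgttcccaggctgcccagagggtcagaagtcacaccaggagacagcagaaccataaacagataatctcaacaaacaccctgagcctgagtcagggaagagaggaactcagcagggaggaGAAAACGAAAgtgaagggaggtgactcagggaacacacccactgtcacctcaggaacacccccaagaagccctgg
Ddx60: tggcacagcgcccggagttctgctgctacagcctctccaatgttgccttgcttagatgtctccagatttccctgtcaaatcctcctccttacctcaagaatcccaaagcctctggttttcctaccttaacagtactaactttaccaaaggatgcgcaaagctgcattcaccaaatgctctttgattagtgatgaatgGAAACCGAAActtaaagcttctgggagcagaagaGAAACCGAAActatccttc
Bst2: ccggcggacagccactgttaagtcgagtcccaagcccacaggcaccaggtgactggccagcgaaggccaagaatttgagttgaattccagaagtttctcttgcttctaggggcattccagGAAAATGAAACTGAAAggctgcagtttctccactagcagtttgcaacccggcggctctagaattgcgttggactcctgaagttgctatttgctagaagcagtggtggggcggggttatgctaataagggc
Isg15: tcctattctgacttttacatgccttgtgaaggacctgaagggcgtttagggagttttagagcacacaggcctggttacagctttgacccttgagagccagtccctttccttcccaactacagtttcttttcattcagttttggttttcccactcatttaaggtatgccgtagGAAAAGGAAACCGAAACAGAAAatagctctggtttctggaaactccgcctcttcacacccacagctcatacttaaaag
Their positions are chr12:26456453-26456702 (minus strand) for Rsad2, chr5:120907526-120907775 (minus strand) for Oas1a, chr5:120777660-120777909 (minus strand) for Oas3, chr8:61927837-61928086 (plus strand) for Ddx60, chr8:71537473-71537722 (minus strand) for Bst2 and chr4:156200819-156201068 (minus strand) for Isg15. Each ends directly before the start listed with it, and the coordinates of a separate RefSeq gene list place the start of Ddx60, Oas1a and Oas3 inside the window. Rsad2 and Oas3 had 1 match each, 120 and 75 bases before the start listed with the window. Ddx60 had 2 separate matches, and the 2 of Oas1a, the 2 of Bst2 and the 3 of Isg15 overlapped. A match describes the letters of the window, and a window without one says only that they are not in it. The entries not found were Dhx58, Ifi27l2a, Mx1, Mx2, Oas2, Parp14, Rtp4, Usp18 and Zbp1.

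Between YH29407+aPD-1 and YH29407 the members had a median log2 fold change of -0.51, where the median over all genes was 0.04. Values were lower with the combination in 32 members and higher in Irf7, Trim30a and Ifi27l2a, while 52.3% of all genes had a log2 fold change above 0. At an unadjusted p under 0.05, edgeR gave 3 members lower (Rsad2, Isg20 and Cmpk2) and 0 higher, and the background over all genes was 6.84% lower and 10.6% higher. The 3 are 8.57% of the members. In 8 members every YH29407+aPD-1 library was below every YH29407 library (Ddx60, Oas1a, Oas3, Rsad2, Cmpk2, Isg20, Ifi44 and Usp18), 22.9% of the members against 9.1% of all genes, and in 0 every one was above (10.4% of all genes). DESeq2 called 1 member, Rsad2, beside 1420 other genes (6.84% of those given an adjusted p). Without combination replicate 4 the median was -0.19 and 26 members were lower. The same 8 had to remain lower without overlap, since leaving out a library cannot make groups overlap, and no further member joined them (15.4% of all genes). Higher without overlap were then 3 (Oas2, Trim30a and Ifi27l2a), against 19.4%. Without YH29407 replicate 3 the median was -0.29. With single libraries left out, the members lower at an unadjusted p under 0.05 numbered 1 to 5. There was 1 without combination replicate 3 or YH29407 replicate 1, against 12.1% and 3.25% of all genes. There were 5 without combination replicate 2 or YH29407 replicate 4, against 3.89% and 3.25% of all genes.

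**Figure D3:**
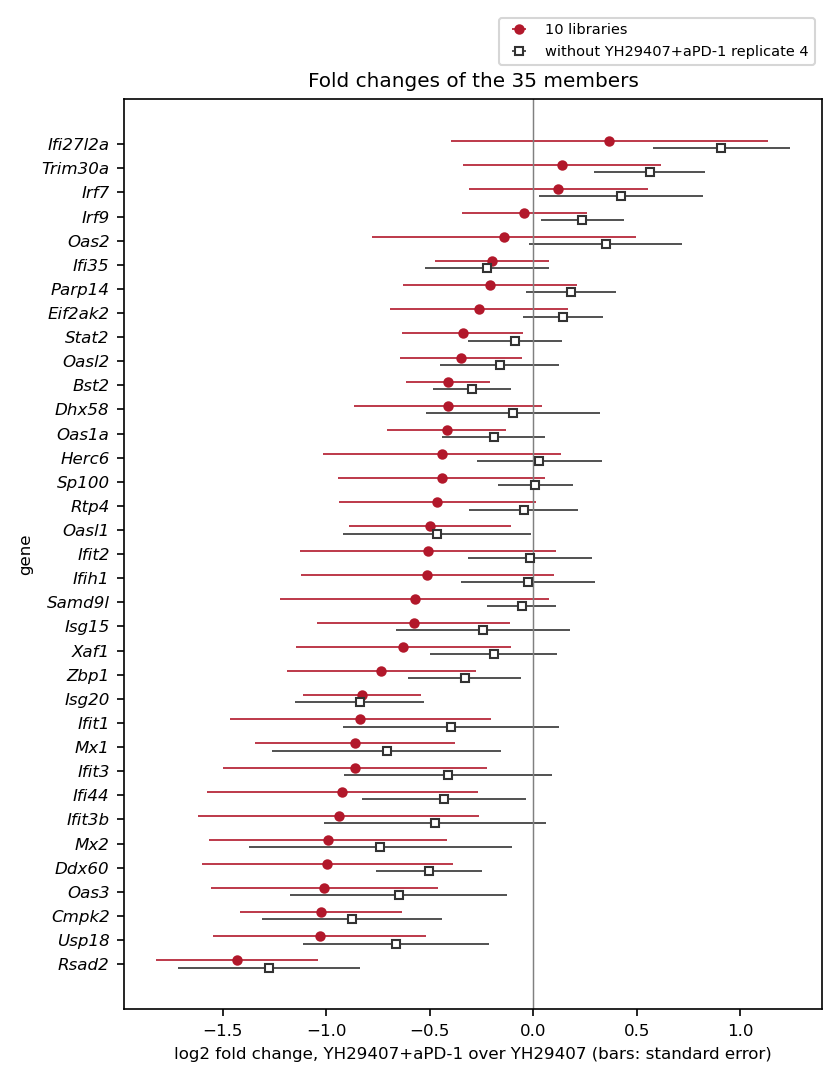
Log2 fold change of each member (rows) for YH29407+aPD-1 over YH29407, from edgeR with its standard error, in the 10 libraries (filled circles) and without combination replicate 4 (open squares). Rsad2 was lowest in both, at -1.43 and -1.28, and 9 members lay above 0 without that library.

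Rsad2, Cmpk2 and Isg20 belong to the antiviral effectors. Rsad2 (viperin) makes a chain-terminating ribonucleotide, and Cmpk2, its neighbor on chromosome 12 (Rsad2 at chr12:26442743-26456452, Cmpk2 at chr12:26469117-26479837, mm10), is a nucleotide kinase of mitochondria. Isg20 is an exonuclease that degrades RNA. Rsad2 had 65.3, 55.5 and 42.3 CPM with YH29407+aPD-1, 138, 188 and 115 CPM with YH29407, 76.4 and 181 CPM with aPD-1 and 190.1 and 93.8 CPM in control tumors. The combination libraries were the lowest 3 of the 10, with no overlap with any other group. Its log2 fold change to YH29407 was -1.43 ± 0.39 (SE, edgeR unadjusted p = 0.00549, adjusted p = 0.215), -1.39 by DESeq2 (adjusted p = 0.0189) and -1.28 without combination replicate 4 (edgeR unadjusted p = 0.0206, adjusted p = 0.177). In FPKM the means were 10.9 with YH29407+aPD-1 and 29.6 with YH29407, with a 2-sided exact permutation p of 0.1, the smallest that 3 libraries against 3 allow.

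Cmpk2 had 31.0, 27.7 and 20.8 CPM with YH29407+aPD-1, 55.4, 71.1 and 35.5 CPM with YH29407, 28.4 and 44.8 CPM with aPD-1 and 71.3 and 28.9 CPM in control tumors. The combination libraries were below all YH29407 libraries, and replicate 2 was within the range of the aPD-1 and control libraries. Its log2 fold change to YH29407 was -1.03 ± 0.39 (SE, edgeR unadjusted p = 0.028, adjusted p = 0.26), and -0.88 without combination replicate 4 (unadjusted p = 0.0798). Isg20 had 7.23, 5.78 and 6.74 CPM with YH29407+aPD-1, 13.3, 11.5 and 10.2 CPM with YH29407, 5.56 and 6.93 CPM with aPD-1 and 15.2 and 7.72 CPM in control tumors. The YH29407 libraries were higher than every library but control replicate 3, and the aPD-1 libraries lay close to the combination. The log2 fold change was -0.83 ± 0.29 (SE, edgeR unadjusted p = 0.0183, adjusted p = 0.243), and it was -0.84 without combination replicate 4, which for this gene lay between the other 2 of its group.

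**Figure D4:**
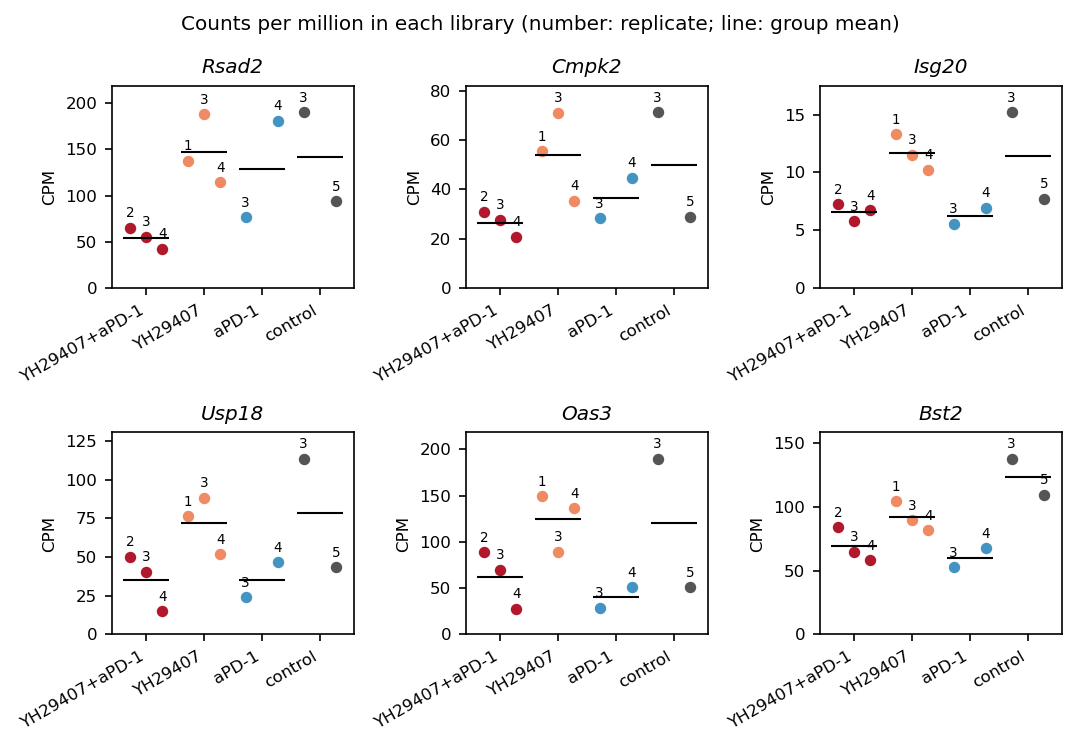
CPM of 6 members in each library, by group, with the replicate number above each point and a line at the group mean. In Rsad2, Cmpk2, Isg20, Usp18 and Oas3 every YH29407+aPD-1 point is below every YH29407 point, and in Bst2 both control points are above all others.

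Of the other effectors, Mx1 and Mx2 are GTPases that block virus replication, Eif2ak2 (PKR) is a kinase that stops translation on double-stranded RNA, and Bst2 (tetherin) holds budding virus at the cell surface. Samd9l restricts virus growth, Rtp4 is a chaperone of receptors, and Ifi44 is an interferon-induced protein of the cytoplasm. Mx2 had 23.1, 24.5 and 12.4 CPM with YH29407+aPD-1, 24.7, 76.1 and 18.4 CPM with YH29407, 19.2 and 36.9 CPM with aPD-1 and 80.5 and 39.1 CPM in control tumors. YH29407 replicate 3 and control replicate 3 were far above the rest, so that the groups overlapped (log2 fold change to YH29407 -0.99 ± 0.58, SE). Bst2 had 84.1, 64.8 and 58.0 CPM with YH29407+aPD-1, 104, 89.5 and 81.5 CPM with YH29407, 52.9 and 67.4 CPM with aPD-1 and 138 and 109 CPM in control tumors. The 2 control libraries were the highest of the 10. Samd9l had 507, 661 and 58.4 CPM with YH29407+aPD-1, 639, 581 and 605 CPM with YH29407, 478 and 533 CPM with aPD-1 and 899 and 633 CPM in control tumors. Apart from combination replicate 4 its libraries lay within 478 and 899 CPM, and its log2 fold change of -0.57 to YH29407 was -0.05 without that replicate. Bst2 is also a marker of plasmacytoid dendritic cells. The 10 markers of these cells, Bst2 among them, had a mean relative log2 CPM of 1.44, 1.17 and 0.15 with YH29407+aPD-1, -0.34, -0.64 and -0.83 with YH29407, -0.54 and -0.15 with aPD-1 and 0.07 and -0.33 in control tumors, so that by this mean the combination libraries were highest. By summed level they were not all highest. The sums were 420, 364 and 439 CPM with YH29407+aPD-1, 336, 298 and 308 CPM with YH29407, 289 and 381 CPM with aPD-1 and 370 and 399 CPM in control tumors. Siglech, the defining marker of these cells, was at 0.609, 0.870 and 0.162 CPM with YH29407+aPD-1 and at 0.110 to 0.359 CPM in the other groups, and the part of these cells in the level of Bst2 was not tested.

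Stat2 and Irf9 are parts of the complex that carries the interferon signal, Irf7 drives transcription of interferon genes, and Sp100 is a protein of nuclear bodies. Stat2 had 196, 164 and 95.0 CPM with YH29407+aPD-1, 178, 214 and 184 CPM with YH29407, 125 and 182 CPM with aPD-1 and 240.0 and 157 CPM in control tumors. Irf7 had 117, 93.0 and 46.0 CPM with YH29407+aPD-1, 67.1, 102 and 66.9 CPM with YH29407, 37.9 and 51.4 CPM with aPD-1 and 159 and 58.9 CPM in control tumors. Sp100 had 191, 199.6 and 38.9 CPM with YH29407+aPD-1, 205, 209 and 169 CPM with YH29407, 152 and 166 CPM with aPD-1 and 263 and 174 CPM in control tumors. In all 3, the highest value was in control replicate 3, and YH29407+aPD-1 overlapped YH29407. Irf7 had combination replicate 2 as its second highest library, with a log2 fold change of 0.12 ± 0.43 (SE) to YH29407, whose sign turned without that library (-0.16). The role group had a median log2 fold change of -0.19 to YH29407, and 0 of the 4 reached an unadjusted p under 0.05 by edgeR.

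The 4 sensors were lower together in combination replicate 4, with a mean relative log2 CPM of -2.03. Ifih1 (MDA5) and Dhx58 (LGP2) bind double-stranded RNA, Ddx60 is a helicase that aids such sensing, and Zbp1 binds Z-form nucleic acid and can start cell death. Ddx60 had 127, 169 and 20.6 CPM with YH29407+aPD-1, 192, 249 and 189 CPM with YH29407, 127 and 151 CPM with aPD-1 and 352 and 201 CPM in control tumors. The YH29407 libraries were all above the combination libraries, which spanned an 8.22-fold range. Zbp1 had 189, 155 and 47.9 CPM with YH29407+aPD-1, 276, 211 and 165 CPM with YH29407, 97.0 and 145 CPM with aPD-1 and 260.2 and 183 CPM in control tumors. Dhx58 had 50.3, 42.3 and 19.4 CPM with YH29407+aPD-1, 34.7, 71.2 and 43.2 CPM with YH29407, 29.0 and 39.8 CPM with aPD-1 and 89.7 and 36.7 CPM in control tumors. For both, 1 or more combination libraries were within the YH29407 range. The log2 fold change to YH29407 was -0.99 ± 0.61 for Ddx60 (SE, edgeR adjusted p = 0.386) and -0.73 ± 0.45 for Zbp1 (SE, edgeR adjusted p = 0.392).

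The IFIT family consists of 4 neighbors on chromosome 19 whose products bind foreign RNA and hinder its translation. Ifit1 had 114, 108 and 24.2 CPM with YH29407+aPD-1, 113, 236 and 90.1 CPM with YH29407, 84.6 and 185 CPM with aPD-1 and 268 and 119.7 CPM in control tumors. Ifit3 had 92.9, 91.2 and 18.3 CPM with YH29407+aPD-1, 99.8, 198 and 69.9 CPM with YH29407, 81.7 and 157 CPM with aPD-1 and 230.0 and 109 CPM in control tumors. Ifit3b had 42.6, 40.6 and 7.34 CPM with YH29407+aPD-1, 45.7, 95.8 and 32.3 CPM with YH29407, 33.4 and 65.9 CPM with aPD-1 and 106 and 46.2 CPM in control tumors. In these 3, control replicate 3, YH29407 replicate 3 and aPD-1 replicate 4 were the 3 highest libraries, 1 from each of 3 groups. Combination replicates 2 and 3 lay between YH29407 replicates 1 and 4, except for replicate 2 in Ifit1, which was just above YH29407 replicate 1, and combination replicate 4 was lowest. The log2 fold changes to YH29407 were -0.84 ± 0.63, -0.86 ± 0.64 and -0.94 ± 0.68 (SE). The longest coding transcripts of Ifit3 and Ifit3b shared 97.8% of 1700 aligned columns, so that reads could be split between them and their values are uncertain as separate genes.

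The OAS family on chromosome 5 makes oligoadenylates that activate RNase L, and the products of Oasl1 and Oasl2 are relatives, of which Oasl1 limits translation of Irf7 in mice. Oas1a had 138, 124 and 75.1 CPM with YH29407+aPD-1, 167, 145 and 139 CPM with YH29407, 70.8 and 91.0 CPM with aPD-1 and 217 and 118 CPM in control tumors. Oas3 had 88.6, 70.0 and 27.9 CPM with YH29407+aPD-1, 149, 89.4 and 137 CPM with YH29407, 28.9 and 51.2 CPM with aPD-1 and 189.8 and 51.3 CPM in control tumors. Both aPD-1 libraries were among the 3 lowest in these genes, and in Oas3 the YH29407 libraries of replicates 1 and 4 came next after control replicate 3. Oasl1 had 49.6, 37.0 and 40.6 CPM with YH29407+aPD-1, 54.8, 77.7 and 47.4 CPM with YH29407, 25.2 and 41.9 CPM with aPD-1 and 103 and 35.6 CPM in control tumors. For Oasl1 combination replicate 4 was within the range of the other 2 of its group. The log2 fold changes to YH29407 were -0.42 ± 0.29 for Oas1a, -1.01 ± 0.55 for Oas3 and -0.50 ± 0.39 for Oasl1 (SE), with edgeR adjusted p of 0.436, 0.347 and 0.485. Oas2 differed from them, with combination replicates 2 and 3 above all YH29407 libraries and replicate 4 lowest of all.

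Isg15 is attached to other proteins, in mice by the ligase Herc6, and is removed by Usp18, which also damps the interferon receptor. Isg15 had 50.6, 39.8 and 17.7 CPM with YH29407+aPD-1, 54.4, 67.3 and 39.6 CPM with YH29407, 27.7 and 45.6 CPM with aPD-1 and 105 and 40.8 CPM in control tumors. Usp18 had 50.3, 40.5 and 15.1 CPM with YH29407+aPD-1, 76.5, 88.3 and 51.8 CPM with YH29407, 24.1 and 46.5 CPM with aPD-1 and 113 and 43.6 CPM in control tumors. Herc6 had 131, 153 and 24.2 CPM with YH29407+aPD-1, 118, 193 and 108 CPM with YH29407, 103 and 116 CPM with aPD-1 and 286 and 164 CPM in control tumors. Usp18 did not overlap between YH29407+aPD-1 and YH29407, by a margin of 1.5 CPM, whereas Isg15 and Herc6 did overlap. The log2 fold changes were -0.58 ± 0.47 for Isg15, -1.03 ± 0.51 for Usp18 and -0.44 ± 0.57 for Herc6 (SE, edgeR adjusted p of 0.498, 0.319 and 0.672), and without combination replicate 4 that of Herc6 was 0.029.

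Of the 5 remaining members, Parp14 adds ADP-ribose to proteins, Xaf1 favors apoptosis, Trim30a is a TRIM-family protein, and Ifi35 and Ifi27l2a are named for their induction. Ifi35 had 40.0, 34.6 and 39.7 CPM with YH29407+aPD-1, 47.1, 52.3 and 31.8 CPM with YH29407, 32.1 and 37.9 CPM with aPD-1 and 61.5 and 32.9 CPM in control tumors. Xaf1 had 56.1, 55.1 and 12.4 CPM with YH29407+aPD-1, 60.9, 81.7 and 48.2 CPM with YH29407, 44.5 and 55.3 CPM with aPD-1 and 98.3 and 51.1 CPM in control tumors. Parp14 had 738, 753 and 219 CPM with YH29407+aPD-1, 609.9, 837 and 529.9 CPM with YH29407, 574 and 645 CPM with aPD-1 and 959 and 652 CPM in control tumors. In these 3 the YH29407+aPD-1 and YH29407 libraries overlapped, and Ifi35 was the member in which combination replicate 4 was least apart. Without that replicate the log2 fold change of Parp14 to YH29407 was 0.18, against -0.21 with it. Ifi27l2a and Trim30a, named here after their values were seen, had higher values in combination replicates 2 and 3 than in any YH29407 library, with 14.6 and 14.0 against 5.90 to 8.75 CPM for Ifi27l2a and 343 and 305 against 178 to 279 CPM for Trim30a. Without replicate 4 the log2 fold change of Ifi27l2a was 0.91 ± 0.33 (SE, edgeR unadjusted p = 0.0266, adjusted p = 0.193).

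Against control tumors YH29407+aPD-1 had lower estimates in all 35 members, with a median log2 fold change of -0.82 (0.10 over all genes), where 54.8% of all genes were above 0. At an unadjusted p under 0.05 edgeR gave 5 lower (Rsad2, Isg20, Mx2, Bst2 and Ifi44) and 0 higher, against backgrounds of 3.12% and 6.98%. DESeq2 called 0 (2.03% of all genes). In 11 members the groups did not overlap, with the combination lower, which is 31.4% of the members against 15.8% of all genes. Bst2 had the smallest p, with a log2 fold change of -0.84 ± 0.23 (SE, edgeR unadjusted p = 0.00501, adjusted p = 0.46). The median depended on the libraries included. Without control replicate 3 it was -0.30 (0.25 over all genes), with 7 members above 0, and without control replicate 5 it was -1.24 (0.21 over all genes). Without combination replicate 4 the median was -0.41, and without control replicate 3 and combination replicate 4 it was 0.11, with 22 above 0.

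Against aPD-1 tumors, YH29407+aPD-1 had higher estimates in 14 members and lower in 21, with a median log2 fold change of -0.09 (0.10 over all genes, 55.5% of them above 0). At an unadjusted p under 0.05 only Rsad2 was lower by edgeR and 0 members were higher, against backgrounds of 2.34% and 5.76%, and DESeq2 called 0 (1.43% of all genes). Rsad2 was also the only member without overlap, 2.86% of the members against 15.6% of all genes, with a log2 fold change of -1.24 ± 0.42 (SE, edgeR unadjusted p = 0.017, adjusted p = 0.565). It was -0.48 without aPD-1 replicate 4, where the median of the members was 0.25, the same as over all genes (0.25). Without combination replicate 4 the median was 0.30 (0.01 over all genes). There, 4 members were higher at an unadjusted p under 0.05, against 7.47% of all genes. Without overlap 17 were then higher and 1 lower, against 25.8% and 23.4% of all genes. The OAS genes had the highest estimates of the role groups, with a median of 0.47 and all 5 above 0, and the IFIT genes the lowest, with a median of -0.72 and all 4 below 0.

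YH29407 alone differed from control tumors by a median log2 fold change of -0.31 (0.01 over all genes), with 4 members above 0 against 51.2% of all genes. No member reached an unadjusted p under 0.05 by edgeR (backgrounds 3.04% higher and 1.51% lower), and DESeq2 called 0 (0.73% of all genes). Only Bst2 and Ifi27l2a did not overlap, both lower with YH29407, 5.71% of the members against 12.8% of all genes. The sign of the median turned without control replicate 3, at 0.29 with 28 members above 0. At an unadjusted p under 0.05, 1 member was lower without combination replicate 4 or without YH29407 replicate 3, against 4.9% and 4.65% of all genes.

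aPD-1 alone had lower estimates than control tumors in all 35 members, with a median of -0.86 (0 over all genes, 49% of them above 0). At an unadjusted p under 0.05 edgeR gave 6 lower (Bst2, Oas1a, Isg20, Oasl2, Irf7 and Oas3) and 0 higher, 17.1% of the members against a background of 1.32% lower and 1.39% higher. In 18 members both aPD-1 libraries were below both control libraries, 51.4% of the members against 21% of all genes. DESeq2 called 1 member, Bst2, beside 52 other genes (0.248%). Its log2 fold change was -1.04 ± 0.25 by edgeR (SE, unadjusted p = 0.00285, adjusted p = 1) and -1.05 by DESeq2 (adjusted p = 0.0496), and it was -0.87 without control replicate 3 (edgeR unadjusted p = 0.0315). With 2 libraries against 2 the exact permutation test cannot go below 0.333. Without control replicate 3 the median was -0.16, and 7 members were above 0. It was -1.19 without control replicate 5, -1.12 without aPD-1 replicate 4 and -0.61 without aPD-1 replicate 3. Without combination replicate 4, 15 members were lower at an unadjusted p under 0.05, against 3.9% of all genes.

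The comparison of YH29407 with aPD-1 was added after the data were seen. YH29407 had higher estimates in 33 members, with a median of 0.43 (0.01 over all genes, 51.3% above 0). At an unadjusted p under 0.05 edgeR gave 5 higher (Isg20, Oas1a, Bst2, Oas3 and Oasl2) and 0 lower, 14.3% of the members against 3.81% higher and 2.02% lower over all genes, and DESeq2 called 0 (1.16% of all genes). In 15 members the groups did not overlap, with YH29407 higher, 42.9% of the members against 14.9% of all genes. Oas3 had the highest log2 fold change, 1.64 ± 0.65 (SE, edgeR adjusted p = 0.828). Control replicate 3 and combination replicate 4 are in neither group and enter through the shared spread and scaling, and leaving out single libraries gave medians of 0.23 to 0.81. Without aPD-1 replicate 3, the lower library of that group, the median was 0.24. Without YH29407 replicate 1, 0 members reached an unadjusted p under 0.05, against 2.22% of all genes higher and 0.991% lower. Without combination replicate 4, 8 members were higher at that threshold, against 7.44% of all genes.

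The interaction asked whether the antibody's effect differed with and without YH29407. Its median over the members was 0.19 (0.04 over all genes), with 27 members above 0 against 52% of all genes. By edgeR 0 members reached an unadjusted p under 0.05 (backgrounds 3.78% higher and 2.39% lower), and DESeq2 called 0 (0.807% of all genes). Rsad2 had the smallest p, with an interaction of -1.29 ± 0.61 (SE, edgeR unadjusted p = 0.0637, adjusted p = 0.837). The median was 0.54 without combination replicate 4, with 7 members higher at an unadjusted p under 0.05, against 6.88% of all genes. It was -0.33 without control replicate 3, and it turned sign without combination replicate 2 as well (-0.0061).

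Of 20 type I and III interferon genes, 5 passed the filter. Ifnz was the most abundant, with 162 to 412 counts (2.51 to 5.95 CPM), and the other 19 had 0 to 92 counts in each library. Ifnb1, an interferon made early after sensing, had 5, 3 and 6 counts with YH29407+aPD-1, 5, 44 and 8 with YH29407, 9 and 19 with aPD-1 and 27 and 7 in control tumors. The most counts of Ifnb1 were in YH29407 replicate 3, control replicate 3 and aPD-1 replicate 4. Combination replicate 4, lowest in the members, had 92 counts of Ifna12, 76 of Ifna7 and 51 of Ifna4, and the highest summed level of the 20 genes, 9.55 CPM against 3.19 to 6.91 CPM elsewhere. It also had 23 counts of Ifnk and 4 of Ifnl3, which were at 0 in the other 9 libraries. This is the library with 7.09% of counts from pseudogenes, and the part of RNA quality in these counts was not tested. Ifnar1 had 54.2, 76.2 and 40.0 CPM with YH29407+aPD-1, 59.4, 67.2 and 57.0 CPM with YH29407, 72.8 and 67.3 CPM with aPD-1 and 60.8 and 74.8 CPM in control tumors. Ifnar2 ranged from 20.4 CPM in combination replicate 4 to 67.4 CPM in control replicate 5.

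Of 24 genes of the receptor and the pathways upstream, 1 was higher (Socs1) and 1 lower (Mavs) at an unadjusted p under 0.05 in YH29407+aPD-1 against YH29407, 4.17% each way against 10.6% and 6.84% of all genes, with a median log2 fold change of -0.01, and 0 were called. Mavs, the adaptor of the RNA sensors, had 36.3, 36.0 and 23.3 CPM with YH29407+aPD-1 and 54.4, 54.5 and 51.4 CPM with YH29407 (log2 fold change -0.75 ± 0.20, SE, edgeR unadjusted p = 0.00465). It had 47.9 and 48.2 CPM with aPD-1 and 33.6 and 32.6 CPM in control tumors. Socs1, an inhibitor of the signal, had 120 CPM in combination replicate 4 and 6.81 to 25.5 CPM elsewhere. Irf1 and Irf3, which act in interferon responses and in interferon induction, had log2 fold changes of -0.18 ± 0.38 and -0.10 ± 0.21 (SE).

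A list of 66 other interferon-stimulated genes had 1 higher (Ifi30) and 2 lower (Ifi27 and Ifitm1) at an unadjusted p under 0.05, 1.52% and 3.03% against 10.6% and 6.84% of all genes, and a median of -0.30 in the same comparison. Genes of the interferon gamma response, 38 in number, had 6 higher and 1 lower, 15.8% higher against 10.6% of all genes, and a median of 0.23. Among them Ciita, which switches on class II antigen presentation, had 17.8, 18.7 and 13.6 CPM with YH29407+aPD-1 and 3.91, 3.13 and 3.06 CPM with YH29407. H2-Eb1, a class II gene, had 64.3, 66.5 and 45.8 CPM with YH29407+aPD-1 and 18.1, 17.6 and 12.2 CPM with YH29407. Both were higher in all 3 combination libraries, replicate 4 included. Ido1, the target of YH29407, had 1.17, 0.814 and 0.755 CPM with YH29407+aPD-1 and 7.49, 1.78 and 5.82 CPM with YH29407. It had 0.425 and 0.905 CPM with aPD-1 and 0.540 and 1.43 CPM in control tumors. Its log2 fold change to control was -0.11 with YH29407+aPD-1 and 2.35 with YH29407, so that YH29407 alone was the group apart. Ifng itself had 1.05, 2.09 and 0.450 CPM with YH29407+aPD-1 and 0.290, 0.869 and 0.260 CPM with YH29407 (log2 fold change 1.34 ± 0.70, SE, edgeR unadjusted p = 0.0897).

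Cell type lists differed between tumors and between groups. The summed level of 24 T cell markers was 198, 205 and 103 CPM with YH29407+aPD-1, against 47.2 to 112 CPM with YH29407, 91.6 and 102 CPM with aPD-1 and 85.3 and 75.8 CPM in control tumors, and Cd3e, Cd8a and Cd4 were above 0 in every library. Of the 24, 15 were higher in YH29407+aPD-1 than in YH29407 at an unadjusted p under 0.05 (62.5% against 10.6% of all genes) and 0 were lower. The 10 neutrophil markers tested had a mean relative log2 CPM of 1.37, 1.14 and -1.14 with YH29407+aPD-1, -1.15 to 0.27 with YH29407, -1.05 and -0.74 with aPD-1 and 2.14 and -0.92 in control tumors. Macrophage and monocyte markers, 18 in number, had a mean from -0.72 in combination replicate 4 to 0.44 in combination replicate 3. The 2 control tumors were alike in this mean, at 0.14 and 0.13, but not in each defining gene. In control replicates 3 and 5, Adgre1 was at 146 and 81.4 CPM, Csf1r at 71.6 and 106 CPM, and Cd68 at 95.4 and 95.8 CPM. Adgre1 was highest in control replicate 3 and lowest in combination replicate 4 (14.4 CPM), where Csf1r was at 61.8 CPM and Cd68 at 51.3 CPM. Keratinocyte genes reached a mean relative log2 CPM of 6.29 and 3.98 in combination replicates 2 and 3, against -1.91 to -0.08 in the other 8 libraries, and 16 of 17 were higher than with YH29407 at an unadjusted p under 0.05 (94.1% against 10.6% of all genes). Skeletal muscle genes were at 1.92, 1.26 and 3.61 with YH29407+aPD-1, -1.51, -0.37 and -1.66 with YH29407, 1.51 and -0.85 with aPD-1 and -2.16 and -1.75 in control tumors. Of the 14 muscle genes, 10 were higher with YH29407+aPD-1 than with YH29407 at an unadjusted p under 0.05 (71.4% against 10.6% of all genes). Against control tumors 13 were higher (92.9% against 6.98% of all genes). The part of these cells in the levels of the members was not tested.

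**Figure D5:**
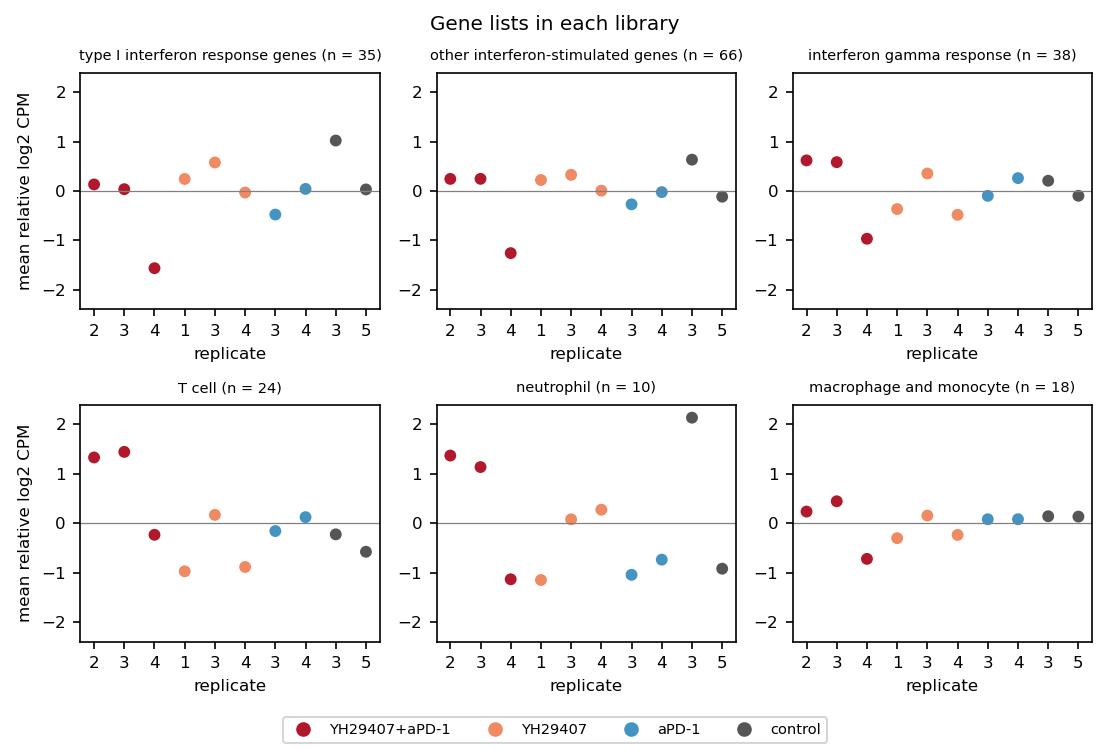
Mean relative log2 CPM of 6 gene lists in each library, colored by group, with the replicate number on the x axis. The members and the other interferon-stimulated genes share the low combination replicate 4 and the high control replicate 3, whereas T cell markers are highest in combination replicates 2 and 3, at 1.33 and 1.44.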

How the data were processed

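Total RNA of 10 tumors was sequenced, and the authors used HISAT2 (genome build mm10) for alignment and StringTie for quantification. The labels name a pair of library kits, SureSelectXT RNA Direct and SMARTER, without saying which library was made with which, and the part of the kit in the values was not tested. The deposited table gives whole-number counts, FPKM and TPM for 45777 genes, of which 12616 had 0 counts in all libraries. StringTie derives counts from coverage, and whether strand was used is not given in the sources used here. The deposited FPKM served for levels per length, and the deposited TPM were not tested. No other value columns were left out.

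The members and lists were chosen with earlier results of these data known. Counts of all 10 libraries were filtered by group, scaled by TMM and tested with edgeR 4.0.16 (quasi-likelihood, 1 term per group, contrasts) in R 4.3.3, with Benjamini-Hochberg adjustment over 21523 genes and a threshold of 0.05. Log2 CPM used a prior count of 2. Nothing in the labels says that tumors of a group were separate cohorts, and p-values measure the spread between these tumors. Exact permutation tests used FPKM and all arrangements of the libraries compared, and Spearman correlations were computed with scipy 1.17.1. Alternatives were DESeq2 1.42.0, limma 3.58.1 on log2(FPKM + 1) and log2(FPKM + 0.1), RLE scaling, no filter, only the groups compared, the replicate number as a block and each library left out. In data simulated with known changes in YH29407+aPD-1, edgeR at an adjusted p under 0.05 recovered 2% of 2-fold changes against YH29407. It recovered 24.5% of 4-fold, 61.7% of 8-fold and 69.4% of 16-fold changes. A count of 0 members therefore does not show that no member changed.

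Values per library are given for up to 3 members a role with the smallest p between YH29407+aPD-1 and YH29407, the 5 highest and 3 lowest by FPKM, and the smallest p of each other comparison. Of other lists, Ifnb1, Ifnar1, Ifnar2, Irf1, Irf3 and Ifng were named, with up to 4 genes a list by smallest p, and 1 further gene is not reported here. Promoters are from RefSeq (GRCm38.p6, the same coordinates as mm10) and transcripts from GENCODE.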

Additional observations from a re-analysis of the deposited data

How the results depend on the processing

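The count of members past an adjusted p of 0.05 was 0 in 123 of 125 alternatives over the 7 comparisons, and with each library left out it was 0 to 0 in all of them. The 2 exceptions came from DESeq2, with 1 member in YH29407+aPD-1 against YH29407 (Rsad2, log2 fold change -1.39) and 1 in aPD-1 against control (Bst2). With the replicate number as a block, 0 members were called, and the medians were -0.92 for YH29407+aPD-1 against YH29407, -1.34 against control and -0.52 against aPD-1, -0.42 for YH29407 against control, -0.76 for aPD-1 against control, 0.36 for YH29407 against aPD-1 and -0.11 for the interaction, whose sign turned, with 15 members above 0. The block left, at an unadjusted p under 0.05, 0 members higher in YH29407 against aPD-1, 1 lower in YH29407+aPD-1 against YH29407 and 0 lower against aPD-1. The shares of all genes were 1.08%, 0.739% and 0.437%. The 9 same-numbered pairs had correlations of their deviations of -0.003 to 0.21, over 0.1 in 2. Both of these paired the combination with aPD-1, at 0.21 for replicate 3 and 0.17 for replicate 4. The highest value of a pair with different numbers was 0.11. With 2 or 3 tumors in a group, these correlations cannot show whether the numbers pair the tumors. The medians with each library left out ranged from -0.75 to -0.19 for YH29407+aPD-1 against YH29407, -1.24 to -0.30 against control, -0.31 to 0.30 against aPD-1, -0.65 to 0.29 for YH29407 against control, -1.19 to -0.16 for aPD-1 against control, 0.23 to 0.81 for YH29407 against aPD-1 and -0.33 to 0.54 for the interaction. Between YH29407+aPD-1 and YH29407, 3 of the 35 members were above 0, but 0 with the block or without combination replicate 2 and 9 without combination replicate 4. Among the 24 members with values per library, the sign turned for Irf7 with the block (-0.30) and without combination replicate 2 (-0.16, in a range of -0.16 to 0.43 over the libraries left out). It turned without combination replicate 4 for Sp100 (range -0.73 to 0.010), Herc6 (-0.82 to 0.029) and Parp14 (-0.43 to 0.18), and for Parp14 also without YH29407 replicate 3 (0.019). Leaving out combination replicate 4 and control replicate 3 together, an alternative chosen after seeing the data, gave 0.00085 for Sp100, 0.020 for Herc6 and 0.17 for Parp14. The cause was not tested. The smallest count of a member in a library was 54.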
